A study of Homo sapiens with 6 samples.

Results

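The genes described here encode heat shock proteins, the heat shock factors and the co-chaperones that work with them. They are 36 genes chosen by name, and every probe set that the array annotation assigns to 1 of them alone was taken, with the probe set of highest mean over the 6 arrays standing for the gene. Of the 36 genes, 31 had such a probe set (70 probe sets in all, among 41091 with a single gene symbol on the array), so that they are 31 of 19775 measured genes. The probe sets of HSPA8 and TCP1 in the annotation used here were all shared with other symbols, so these genes were left out. HSF2, HSPB11 and AHSA1 were not measured here either. HSPA1L and HSPA6 lay below the array median (102 to 122, over probe sets with a single symbol) on all 6 arrays, which left 29 genes in the fits.

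RNA was measured on 6 Affymetrix U133 Plus 2.0 arrays in SKOV-3 and Caov-3, both established human ovarian carcinoma cell lines. Each line was left untreated, given interleukin-6 (IL-6) at 30 ng/ml for 1 h, or given siltuximab (CNTO328), an antibody that binds IL-6, 4 h ahead of the same IL-6 treatment. Each of these 6 groups is 1 array hybridised with RNA pooled from 3 flasks of the line, so that no group has a replicate and the spread between flasks is not seen. No group received siltuximab without IL-6, and the dose of the antibody is not given in the sources used here.

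Heat shock proteins hold unfolded or partly folded proteins and help them fold, pass them on or hand them over for breakdown. HSP70 proteins work with J-domain proteins, which bring them clients, and with nucleotide exchange factors, which release the clients. HSP90 finishes the folding of kinases and steroid receptors with its own co-chaperones. Many of these genes are switched on together by HSF1 through heat shock elements in their promoters, and tumour cells often hold the system at a high level. Some members act outside the cytosol, as HSPA9, HSPD1 and HSPE1 are mitochondrial and HSPA13 is microsomal.

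The arrays had been scaled alike (a 2% trimmed mean of 500.06 to 500.07), and across genes they correlated at r = 0.976 to 0.984 within a line and at 0.878 to 0.886 between the lines. The array of Caov-3 with IL-6 stood apart in 1 measure of RNA integrity, with a 5' to 3' signal ratio of beta-actin (ACTB) of 0.494 against 0.643 to 0.767 on the others. It did not stand apart in the same ratio of GAPDH, at 1.05 against 0.957 to 1.07 on the others. On that array 10.4% of all single-symbol probe sets past the filter were at least 1.5-fold below both other arrays of the line, against 1.07% to 2.47% on the others. Among 64 probe sets of the chaperone genes these were 2 (3.12%), of HSPD1 and DNAJB5. The poly-A controls added before labelling were at 1.56 and 1.51 times the untreated level on the IL-6 arrays of SKOV-3 and Caov-3, and at 1.02 and 1.17 times on the siltuximab arrays. The epithelial genes KRT8, KRT18 and EPCAM were above the array median on all 6 arrays, as were KRT7 and PAX8, and KRT19 and MUC16 were above it on the Caov-3 arrays only. Of 4 leukocyte genes 1 to 2 were above it on an array (CD79A, and CD14 on 4 arrays), with summed signals of 317 to 570.4 on SKOV-3 arrays and 841 to 898 on Caov-3 arrays, and PTPRC and CD3E were below it on all 6. Of 5 fibroblast and endothelial genes COL1A1 and PECAM1 were above it on all 6 and DCN, LUM and VWF on none, with summed signals of 471 to 681 and 4829 to 5785. The part of such cells in the line differences was not tested. CDKN2A, known to be lost in SKOV-3, was at 73.8 to 175 on the SKOV-3 arrays and at 4036 to 4271 on the Caov-3 arrays, as that label says. ERBB2, which SKOV-3 is known to carry in many copies, was lower on the arrays labelled SKOV-3 (579.9 to 733) than on those labelled Caov-3 (1017 to 1243), against that label.

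**Figure D1:**
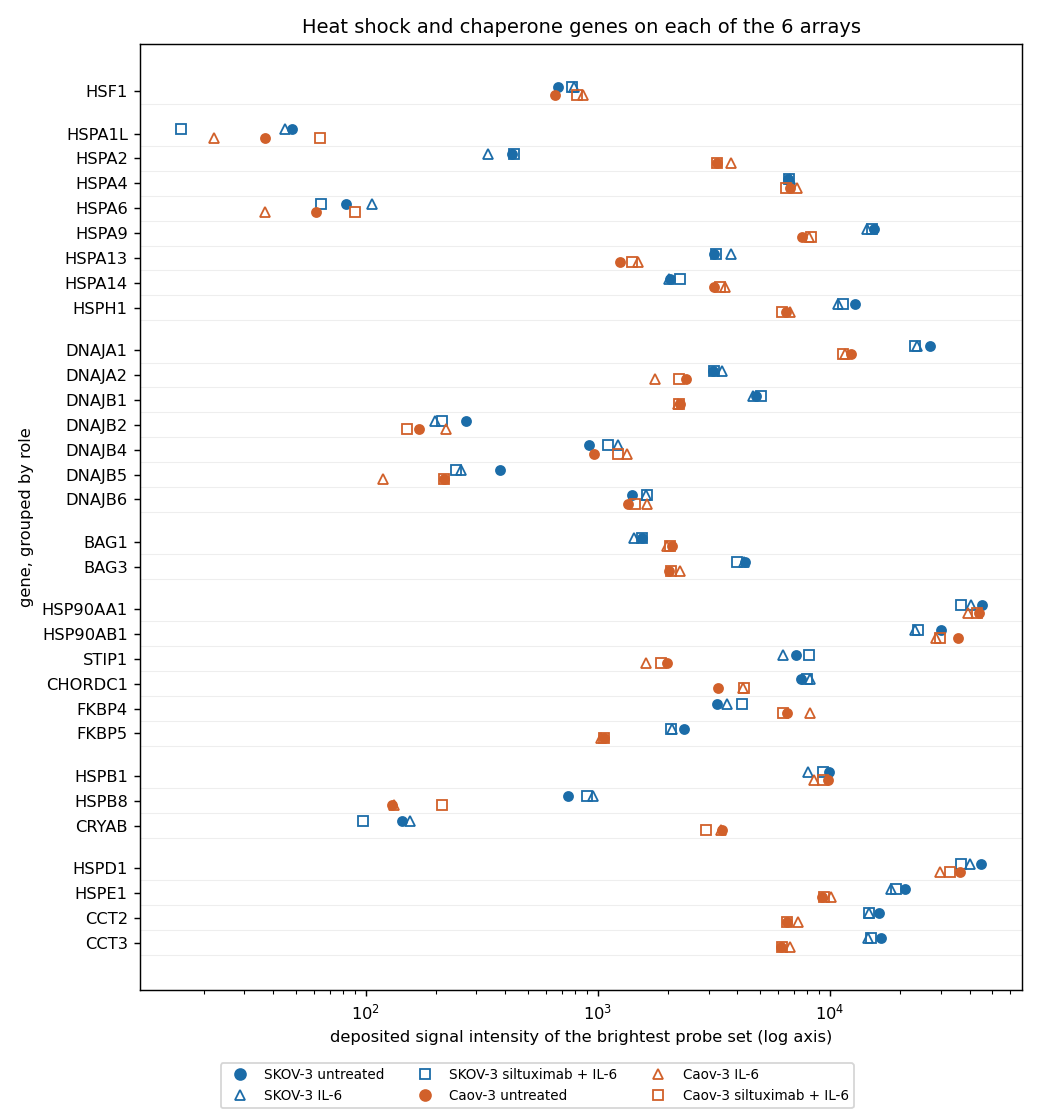
Deposited signal intensity of the brightest probe set of 31 genes (horizontal log axis), with 1 symbol for each of the 6 arrays, SKOV-3 in blue and Caov-3 in orange. HSPA2 and CRYAB stand far higher in Caov-3 and HSPB8 far lower, while the 3 treatments of a line lie close together for most genes.

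The first comparison was between the lines. In Caov-3, 16 of the 29 tested genes were lower than in SKOV-3 and 6 were higher, and 7 did not pass the test. The lower ones took in the 4 chaperonin genes tested, HSP70 of the mitochondria, 4 of 7 J-domain proteins and the HSP90 co-chaperone STIP1. Many of them were lower by about 2-fold. Chaperonin and J-domain genes outside these 29 did not all follow, as given below. CRYAB and HSPA2 stood the other way, with 22.2-fold and 8.26-fold more signal in Caov-3 (on the scale with 17.1 added to each signal). The test was limma's, over 12290 genes with treatment as a block, at a Benjamini-Hochberg adjusted p under 0.05. The 3 arrays of a line are 3 treatments and not replicates, and an exact permutation of 3 against 3 arrays could not give a p below 0.1. Sets of 3 signals are given below in the order untreated, IL-6, siltuximab plus IL-6.

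The lines differ in most genes, so these counts have to be read against the background. Over all genes 70.8% were called, 32.3% lower in Caov-3 and 38.6% higher, and the 22 called chaperone genes are 75.9% of 29, a share near that. The 16 lower genes are 55.2% of 29, and the 6 higher ones 20.7%. At least 2-fold lower were 10 of 29 genes (34.5%), against 14.6% of all genes, and at least 2-fold higher were 2 of 29 (6.9%), against 20.1%. The arrays of the lines did not overlap for 21 of 29 genes (74.1% of all genes), with Caov-3 below for 16 (34.1% of all). The median log2 difference, Caov-3 minus SKOV-3, was -0.61 over the 29 genes and 0.07 over all genes. These shares describe the list and were not tested.

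**Figure D2:**
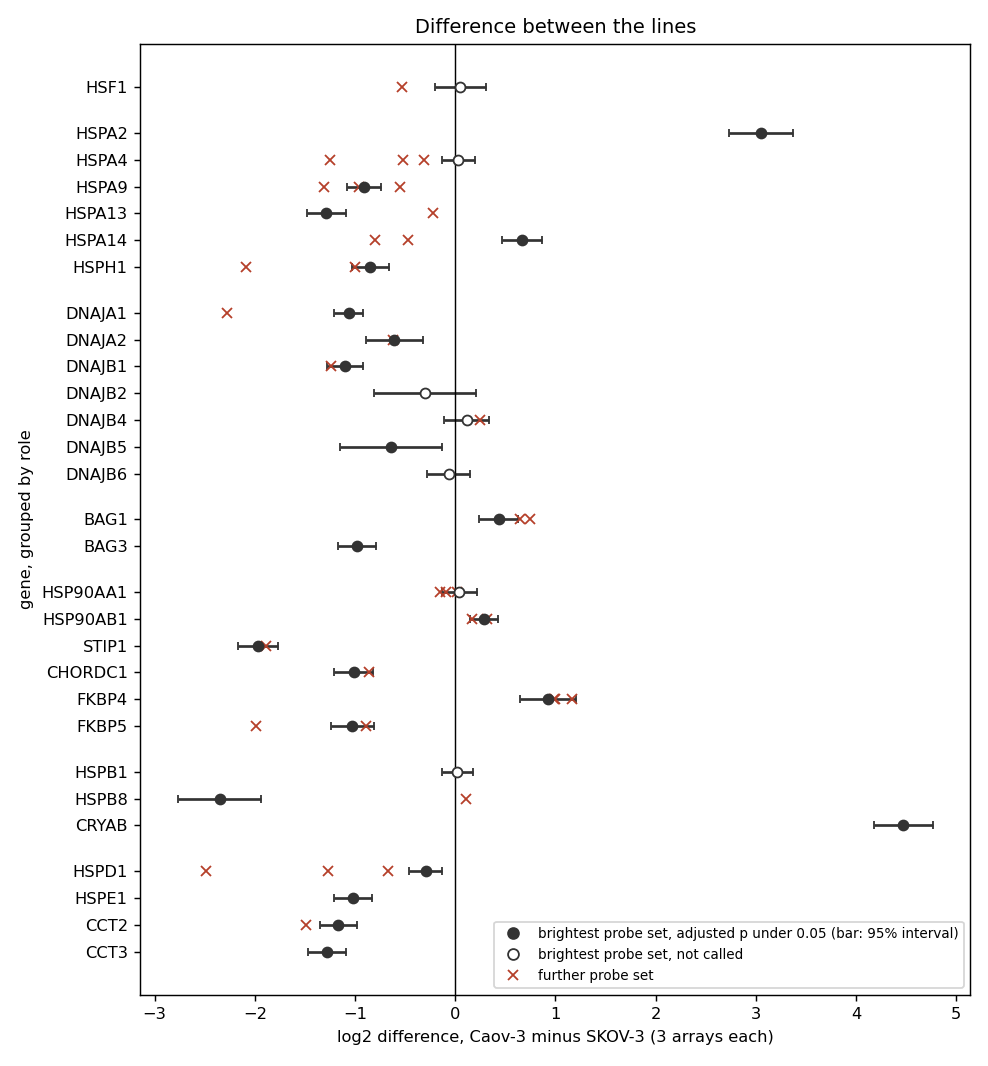
Log2 difference between Caov-3 and SKOV-3 for 29 genes (circles, filled where the adjusted p is under 0.05, with 95% intervals), and the difference of each further probe set past the filter (crosses). All 4 chaperonin genes lie to the left of 0, and CRYAB, at 4.47, lies farthest to the right.

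HSF1, the transcription factor that drives the heat shock response, had SKOV-3 signals of 674, 794 and 772. Its Caov-3 signals were 653, 865 and 811. The values of the lines overlapped, and the log2 difference was 0.05 (95% interval -0.21 to 0.31, adjusted p = 0.701). Its further, dimmer probe set was at -0.53.

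Among the chaperonins, CCT3 and CCT2 encode subunits of the ring that folds actin and tubulin. CCT3 had SKOV-3 signals of 16626, 14621 and 15105, against Caov-3 signals of 6132, 6749.6 and 6208. CCT2 had SKOV-3 signals of 16267, 14713 and 14705, against Caov-3 signals of 6532, 7273 and 6511. Every Caov-3 array lay below every SKOV-3 array for both genes. The log2 differences were -1.28 (SE 0.0804, adjusted p = 1.23e-05) for CCT3 and -1.17 (SE 0.078, adjusted p = 1.6e-05) for CCT2, whose further probe set was at -1.49.

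HSPE1 and HSPD1 encode the small and the large subunit of the mitochondrial chaperonin. They are divergent neighbours on chromosome 2, with start sites 105 bases apart in RefSeq's GRCh38.p14 annotation. HSPE1 had SKOV-3 signals of 21102, 18274 and 19247, against Caov-3 signals of 9256, 10119 and 9393, a log2 difference of -1.02 (SE 0.0801, adjusted p = 3.15e-05). HSPD1 had SKOV-3 signals of 44812, 40098 and 36638, against Caov-3 signals of 36416, 29785 and 32877, a log2 difference of -0.29 (SE 0.0704, adjusted p = 0.00753). The arrays of the lines did not overlap for either gene, though the lowest SKOV-3 value of HSPD1 and the highest Caov-3 value lay close. The intervals of the log2 differences were -1.21 to -0.83 for HSPE1 and -0.46 to -0.13 for HSPD1. The size for HSPD1 depends on the probe set, since its next brightest one was at -0.67 and the mean of all gave -1.01. That mean takes in dim probe sets, such as a probe set at 2.73 on the IL-6 array of Caov-3. Another of them was below the array median on every array. A prior variance with no trend left HSPD1 uncalled (adjusted p = 0.0604).

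In the HSP70 family 3 of 6 tested genes were lower in Caov-3 and 2 higher (32.3% and 38.6% of all genes). Of the higher ones, HSPA14 was so by its brightest probe set only. HSPA2, an HSP70 best known from spermatogenesis, had SKOV-3 signals of 428, 336 and 435. Its Caov-3 signals were 3254, 3739 and 3254. The lines were well apart on every array, with a log2 difference of 3.05 (SE 0.134, adjusted p = 2.77e-06), and HSPA2 has 1 probe set of its own here. HSPA13, a microsomal HSP70, had SKOV-3 signals of 3169, 3763 and 3241, against Caov-3 signals of 1250.5, 1490.1 and 1399.8. Its log2 difference was -1.29 (SE 0.0826, adjusted p = 1.34e-05), with the further probe set at -0.22.

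The mitochondrial HSP70 gene HSPA9 spanned 14481 to 15545 on SKOV-3 arrays against 7614 to 8311 on Caov-3 arrays, a log2 difference of -0.91 (adjusted p = 2.97e-05), and the further probe sets that reached the array median in both lines were at -0.96 and -1.31. HSPH1, an HSP110 protein that releases clients from HSP70, ran from 10885 to 12800 and from 6248 to 6705, a log2 difference of -0.85 (adjusted p = 6.65e-05). HSPA14, which acts at the ribosome, was higher in Caov-3 by its brightest probe set (log2 difference 0.67, adjusted p = 0.000325). Its further probe sets went the other way, at -0.80 and -0.47, and the mean of all 3 gave -0.20 (adjusted p = 0.0873), so that its direction depends on the probe set.

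HSPA4, another HSP110 protein, spanned 6581 to 6703 on SKOV-3 arrays against 6499 to 7221 on Caov-3 arrays by its brightest probe set and was not called (log2 difference 0.03, 95% interval -0.13 to 0.20). Its 3 further probe sets were at -0.31, -0.53 and -1.25. It was called lower in Caov-3 by the mean of all probe sets (-0.51, adjusted p = 0.00322) and by the brightest probe set not ending in _x_at or _s_at (-1.25, adjusted p = 0.000967). The stress-inducible HSPA6 spanned 64.0 to 106 on SKOV-3 arrays against 36.8 to 89.5 on Caov-3 arrays, and HSPA1L 15.9 to 47.9 against 22.3 to 63.6, all below the array medians.

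J-domain proteins are the partners that stimulate HSP70, and 4 of 7 were lower in Caov-3 and 0 higher (32.3% and 38.6% of all genes). J-domain genes among the other chaperone genes described below were called both ways. Higher in Caov-3 were DNAJC6, DNAJB12, DNAJB9, DNAJC9 and DNAJC1 (log2 differences 2.25, 0.91, 0.57, 0.46 and 0.35). Lower were DNAJC7, DNAJA4, DNAJC2, DNAJC8 and DNAJA3 (-1.27, -1.13, -0.42, -0.29 and -0.25). DNAJB11, DNAJB14, DNAJC3, DNAJC5 and DNAJC10 were not called. DNAJB1, the heat-inducible member also called HSP40, had SKOV-3 signals of 4784, 4648 and 5039.8. Its Caov-3 signals were 2267, 2226 and 2232, all below the SKOV-3 arrays. The log2 difference was -1.10 (SE 0.0756, adjusted p = 1.81e-05), and the further probe set gave -1.24.

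DNAJA1 had SKOV-3 signals of 26919, 23733 and 23331, against Caov-3 signals of 12284, 11659 and 11362, again without overlap. Its log2 difference was -1.06 (SE 0.0622, adjusted p = 8.89e-06), with -2.28 from the further probe set. DNAJA2 was lower by a smaller step, with SKOV-3 signals of 3149.9, 3428 and 3154 and Caov-3 signals of 2405, 1771 and 2242 (log2 difference -0.61, adjusted p = 0.00308; further probe set -0.62). Its lowest value was on the IL-6 array of Caov-3. Leaving that array out kept the call.

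DNAJB5 had a log2 difference of -0.64 (SE 0.214, adjusted p = 0.0311), a call that was lost without the untreated array of either line or the IL-6 array of either line (adjusted p from 0.107 to 0.134). DNAJB2, DNAJB4 and DNAJB6 were not called. DNAJB6, which keeps aggregation-prone proteins soluble, spanned 1399 to 1622 on SKOV-3 arrays against 1349 to 1631 on Caov-3 arrays, a log2 difference of -0.07 (95% interval -0.28 to 0.15).

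The BAG proteins exchange nucleotide on HSP70 and direct its clients, BAG1 to the proteasome and BAG3, together with HSPB8, to autophagy. They stood opposite ways. BAG3 spanned 3991 to 4307 on SKOV-3 arrays against 2029 to 2257 on Caov-3 arrays, a log2 difference of -0.98 (adjusted p = 3.77e-05). BAG1 ran from 1432 to 1549.7 and from 1985 to 2084, a log2 difference of 0.43 (adjusted p = 0.00281), with 0.75 and 0.65 from the further probe sets.

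Of the HSP90 genes 1 was called, where 70.8% of all genes were. The inducible form HSP90AA1 spanned 36635 to 45415 on SKOV-3 arrays against 39193 to 43828 on Caov-3 arrays, a log2 difference of 0.04 (95% interval -0.14 to 0.22). The constitutive form HSP90AB1 spanned 23173 to 30023 on the former and 28569 to 35676 on the latter, a log2 difference of 0.29 (SE 0.0582, adjusted p = 0.00346). Its arrays overlapped between the lines, with the untreated array of each line the highest, and the call was lost without the treatment term (adjusted p = 0.0584).

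Of 4 HSP90 co-chaperones 3 were lower in Caov-3 and 1 higher (32.3% and 38.6% of all genes). STIP1, also called HOP, carries clients from HSP70 to HSP90, and it had SKOV-3 signals of 7133, 6268 and 8161. Its Caov-3 signals were 1993, 1606 and 1879, a 3.9-fold lower signal (log2 difference -1.96, SE 0.084, adjusted p = 2.49e-06), and the further probe set gave -1.89. CHORDC1, an HSP90-binding co-chaperone, had SKOV-3 signals of 7528, 8213 and 7943, against Caov-3 signals of 3288, 4227 and 4253 (log2 difference -1.02, SE 0.0828, adjusted p = 3.86e-05).

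FKBP4 and FKBP5 are related immunophilins that bind HSP90 in steroid receptor complexes and act on those receptors in opposite ways. FKBP5, which holds receptors inactive, had SKOV-3 signals of 2364, 2087 and 2067, against Caov-3 signals of 1068, 1035 and 1062. FKBP4 had SKOV-3 signals of 3262, 3599 and 4162, against Caov-3 signals of 6512, 8230.4 and 6257. The arrays of the lines did not overlap for either gene, and the genes stood opposite ways. Log2 differences were -1.03 (SE 0.091, adjusted p = 5.72e-05) for FKBP5 and 0.92 (SE 0.118, adjusted p = 0.000345) for FKBP4. The further probe sets that reached the array median in both lines gave -0.89 and -1.99 for FKBP5 and 0.99 for FKBP4. The FKBP5 probe set at -1.99 reached the median on only 1 Caov-3 array, so its size rests on values near background.

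Small heat shock proteins hold unfolded proteins without using ATP. CRYAB, or alphaB-crystallin, had SKOV-3 signals of 144, 155 and 97.6, close to the array medians of 103 to 111. Its Caov-3 signals were 3433, 3385 and 2925. The log2 difference of 4.47 (SE 0.124, adjusted p = 4.92e-07) was the largest of the 29 in size, from the only probe set of the gene. With its SKOV-3 signals this close to the medians, the size rests on the constant added, and adding the overall median of 111 gave 3.79.

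HSPB8, the partner of BAG3, had SKOV-3 signals of 745, 951 and 894, against Caov-3 signals of 130.4, 132 and 213. The log2 difference was -2.35 (SE 0.174, adjusted p = 2.48e-05), a 5.1-fold lower signal, with every Caov-3 array below every SKOV-3 array. The further probe set, at 16.9 to 138 on the 6 arrays and below the array median on 4 of them, was at 0.11 (adjusted p = 0.821 where it stood for the gene), and the mean of both gave -1.12. HSPB1, also called HSP27, spanned 8054 to 9956 on SKOV-3 arrays against 8549 to 9831 on Caov-3 arrays and was not called (log2 difference 0.02, 95% interval -0.13 to 0.18).

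Among further probe sets of the called genes that reached the array median in both lines, 19 had the sign of the brightest one and 2, both of HSPA14, had the other. The remaining ones passed the filter through 1 line only and are not counted here.

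Other chaperone genes were taken from a list of 60, of which 56 were measured and 49 tested. In Caov-3, 23 of them (46.9%) were lower and 11 (22.4%) higher, beside 32.3% and 38.6% of all genes, and the median log2 difference was -0.18. Among the other CCT genes, CCT7 (log2 difference -0.66), CCT6A (-0.59) and CCT4 (-0.41) were lower. CCT5 (0.07), CCT8 (0.05) and CCT6B (-0.44) were not called. PPID, an HSP90-binding cyclophilin, had SKOV-3 signals of 1419, 3345 and 1903, against Caov-3 signals of 12, 82.0 and 50.7. All Caov-3 signals lay below the array median, so that it passed the filter through SKOV-3 alone and no size of difference is given. The prefoldin subunit gene PFDN2, at -2.35, and GRPEL1, the nucleotide exchange factor of HSPA9, at -2.14, were lower too. ST13, or HIP, which steadies HSP70 with its client, was higher in Caov-3 by 2.24 (SE 0.0667, adjusted p = 6.33e-07), with 1.98 and 2.48 from its further probe sets, and so was DNAJC6, which uncoats clathrin vesicles, at 2.25. HSPB2, a small heat shock gene that lies within the span of the CRYAB gene record on chromosome 11, had signals of 2.76 to 35.8 (SKOV-3, all below the array median) and 161 to 323 (Caov-3). It too passed the filter through 1 line alone, and PPID and HSPB2 are counted among the 23 lower and 11 higher genes.

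Promoters of the members were searched for the letters of the heat shock element, because HSF1 acts through it. RefSeq promoters (GRCh38.p14, 250 bases before to 50 after the start site) were matched for 31 of the 36 genes; HSF1, HSPA14, HSPB11, FKBP4 and CRYAB had no entry. The core GAANNTTC was in 9 of these 31 promoters (29%) and in 6.87% of all 27305 promoters in the table. The longer form of 3 units, which is the core followed by NN and GAA, or the reverse complement of that, and so contains the core, was in 5 of 31 (CHORDC1, DNAJA1, DNAJB6, HSPA6 and HSPA8) and in 0.487% of all promoters. The letters TTCNNNGAA, which STAT factors can bind, were in 0 of the 31 and in 7.88% of all, and no match says only that these letters are not in this window. Both strands were searched, and a match is a description of the letters and not a bound site.

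The promoters of 5 genes are shown from 250 bases before the start site to 20 after it, on the strand of the gene, with the matched letters in capitals. CHORDC1 (chr11:90223030-90223299, minus strand) and DNAJA1 (chr9:33025023-33025292, plus strand) hold the 3-unit form and were lower in Caov-3. DNAJB6 (chr7:157336754-157337023, plus strand) holds it and was not called between the lines. HSPA6 (chr1:161524290-161524559, plus strand) holds it and lay below the array median on every array. HSPB8 (chr12:119178681-119178950, plus strand) holds the core and had the most negative difference of the 29 genes. The other genes called lower in Caov-3 had no match to the core in the window searched. They were HSPA9, HSPA13, HSPD1, HSPE1, HSPH1, DNAJA2, DNAJB1, DNAJB5, BAG3, STIP1, FKBP5, CCT2 and CCT3. For these too, no match says only that these exact letters are not in this window. Other start sites and other forms of the element were not searched. HSPB1, which was not called, holds the core.
CHORDC1: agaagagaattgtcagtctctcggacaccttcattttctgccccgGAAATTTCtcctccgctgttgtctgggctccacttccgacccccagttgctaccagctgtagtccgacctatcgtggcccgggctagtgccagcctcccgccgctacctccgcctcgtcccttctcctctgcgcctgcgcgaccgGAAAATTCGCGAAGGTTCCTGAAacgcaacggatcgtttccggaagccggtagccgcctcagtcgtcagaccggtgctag
DNAJA1: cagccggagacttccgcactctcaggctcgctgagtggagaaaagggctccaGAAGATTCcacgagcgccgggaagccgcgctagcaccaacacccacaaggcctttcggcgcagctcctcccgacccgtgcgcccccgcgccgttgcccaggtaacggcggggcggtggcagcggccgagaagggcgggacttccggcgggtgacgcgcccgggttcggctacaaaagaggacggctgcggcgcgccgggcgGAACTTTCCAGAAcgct
DNAJB6: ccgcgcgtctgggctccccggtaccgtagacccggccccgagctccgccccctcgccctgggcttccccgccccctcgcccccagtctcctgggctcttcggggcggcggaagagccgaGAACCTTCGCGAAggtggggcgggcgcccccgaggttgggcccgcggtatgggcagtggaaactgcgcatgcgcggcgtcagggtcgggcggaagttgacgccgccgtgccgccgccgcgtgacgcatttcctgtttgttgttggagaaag
HSPA6: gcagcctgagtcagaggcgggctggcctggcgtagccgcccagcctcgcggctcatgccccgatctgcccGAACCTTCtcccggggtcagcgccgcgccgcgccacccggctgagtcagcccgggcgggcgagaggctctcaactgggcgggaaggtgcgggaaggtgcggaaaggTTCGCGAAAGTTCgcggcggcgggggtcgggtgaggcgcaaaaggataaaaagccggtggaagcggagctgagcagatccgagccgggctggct
HSPB8: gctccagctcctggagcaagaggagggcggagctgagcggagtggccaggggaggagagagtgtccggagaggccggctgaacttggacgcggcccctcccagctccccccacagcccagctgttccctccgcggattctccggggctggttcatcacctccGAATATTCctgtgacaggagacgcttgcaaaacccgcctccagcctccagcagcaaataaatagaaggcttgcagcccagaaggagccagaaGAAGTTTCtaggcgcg
In CHORDC1 overlapping matches run from 60 to 38 bases before the start site. In DNAJA1 the 3-unit match begins 4 bases after it, in DNAJB6 131 bases before it and in HSPA6 74 bases before it.

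The second comparison was IL-6 for 1 h against untreated, which asks whether the cytokine moves these genes. limma called 0 of the 29 genes over both lines, and 0% of all 12290 genes. At an unadjusted p under 0.05 there were 9 of 29, and 9.62% of all genes, and the smallest adjusted p was 0.328. The median log2 difference was -0.03 over the 29 genes and 0.00 over all genes. With only 2 residual degrees of freedom and the lines as the only repeat, a missing call does not show that there was no response.

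DNAJB4, a J-domain protein, stood highest with IL-6 in both lines. It had SKOV-3 signals of 918, 1219 and 1104, against Caov-3 signals of 960.1, 1340.2 and 1218. The untreated array was the lowest in each line. Folds of IL-6 over untreated were 0.40 and 0.47 on the log2 scale, and the difference over both lines was 0.44 (SE 0.115, adjusted p = 0.351). Its further probe set went slightly the other way, at -0.09 and -0.14.

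HSP90AB1 was lower with IL-6 in both lines. It had SKOV-3 signals of 30023, 23173 and 23997, against Caov-3 signals of 35676, 28569 and 29794. The untreated array was the highest in each line, and the siltuximab array lay near the IL-6 array. The difference over both lines was -0.35 (SE 0.0712, adjusted p = 0.328) as deposited, -0.30 after cyclic loess and -0.17 after quantile normalization, so that its size depended on the scaling. HSPD1 was at -0.23 as deposited and -0.02 after quantile normalization.

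HSPB1 went from 9956 untreated to 8054 with IL-6 on the SKOV-3 arrays, and from 9831 to 8549 on those of Caov-3, a difference of -0.25 over both lines (adjusted p = 0.435). HSF1 was at log2 folds of 0.23 and 0.40, with -0.29 and -0.36 from its further probe set. HSPA13, CHORDC1 and STIP1 were at differences of 0.25, 0.24 and -0.25 over both lines, each with an unadjusted p just under 0.05 and an adjusted p above 0.5. The poly-A controls stood above untreated on the IL-6 arrays of both lines, and their part in these values was not tested.

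**Figure D3:**
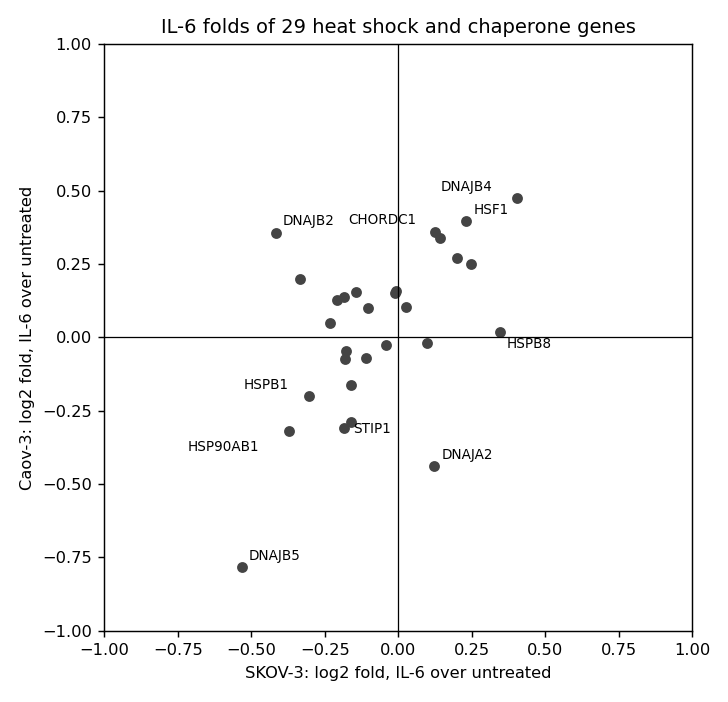
Log2 fold of IL-6 over untreated, 1 array over 1 array, in SKOV-3 (horizontal) and Caov-3 (vertical) for 29 genes. DNAJB4 lies highest at the upper right (0.40 and 0.47) and DNAJB5 lowest at the lower left (-0.53 and -0.78), and most genes lie within 0.4 of 0 on both axes.

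Within a line, where 1 array stands against 1 array and no test is possible, a fold of at least 1.5 was counted. In SKOV-3 0 of 29 genes reached it either way with IL-6, against 3.02% of all genes upwards and 4.59% downwards. In Caov-3 0 were higher and 1 was lower, against 5.04% and 6.16%. The 1 gene was DNAJB5, a J-domain protein, with SKOV-3 signals of 379, 257 and 244 and Caov-3 signals of 217, 119 and 218. Its folds with IL-6 were -0.53 and -0.78 on the log2 scale, the second on the Caov-3 array of low ACTB ratio, and the difference over both lines was -0.66 (SE 0.263, adjusted p = 0.492). Of the 29 genes, 8 were above untreated in both lines, 10 below in both and 11 opposite. The sign was thus the same in both lines for 62.07% of the 29, beside 53.35% of 10537 genes, and this was not tested.

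DNAJB2, which links HSP70 to the proteasome, had SKOV-3 signals of 269.9, 198 and 213, against Caov-3 signals of 170.2, 223 and 151, with folds of -0.42 and 0.36 for IL-6. DNAJA2 was at folds of 0.12 and -0.44. No gene among the 29 was 1.5-fold apart in opposite directions, and whether the lines responded differently could not be tested with 1 array a group.

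The median fold of the 29 genes with IL-6 was -0.11 in SKOV-3 and 0.10 in Caov-3, beside -0.05 and 0.08 over all genes. After quantile normalization the SKOV-3 median was 0.00 and after cyclic loess -0.01. The chaperonin genes CCT2, CCT3 and HSPE1 had folds of -0.14, -0.19 and -0.21 on the SKOV-3 arrays and 0.15, 0.14 and 0.13 on those of Caov-3. HSPD1, the fourth, had folds of -0.16 and -0.29.

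**Figure D4:**
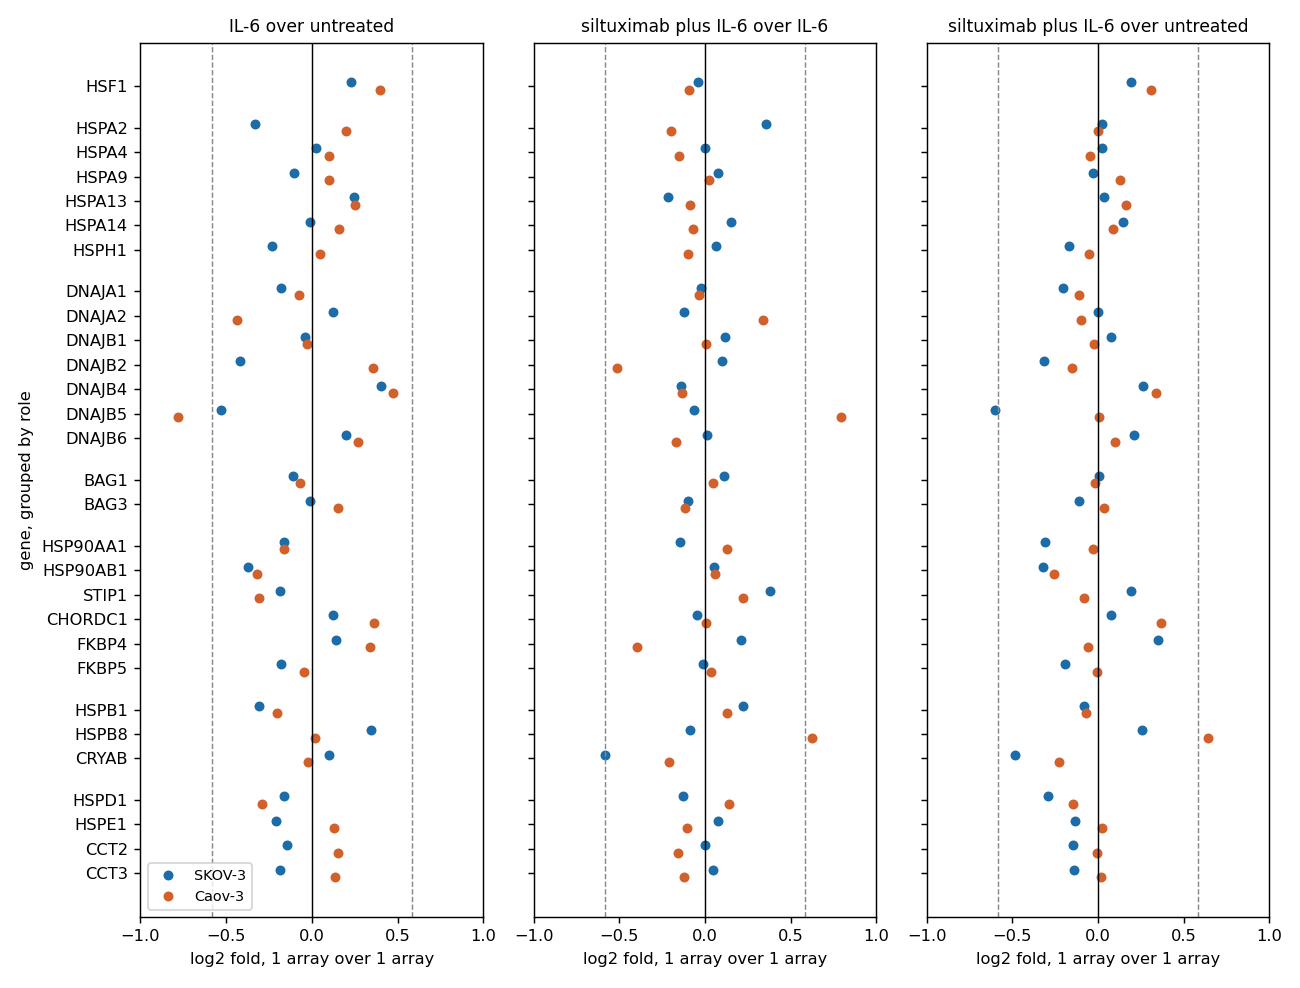
Log2 folds of 29 genes in the 3 treatment comparisons, SKOV-3 in blue and Caov-3 in orange, each point 1 array over 1 array and the dashed lines at 1.5-fold. Outside the dashed lines lie DNAJB5 in each comparison, in Caov-3 or SKOV-3, and HSPB8 in the siltuximab comparisons of Caov-3.

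The third question was whether siltuximab before IL-6 changed these genes. Against IL-6 alone limma called 0 of 29 genes and 0% of all genes (at an unadjusted p under 0.05, 2 of 29 and 3.24% of all), with a smallest adjusted p of 0.983. The median log2 difference was -0.02, beside -0.03 over all genes. At least 1.5-fold apart were 0 genes in SKOV-3 (2.11% of all genes higher, 2.46% lower), and in Caov-3 2 higher and 0 lower (5.27% and 2.87% of all).

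The 2 genes were DNAJB5, back from 119 to 218, and HSPB8, from 132 to 213, at log2 folds of 0.79 and 0.62. Quantile normalization took them below 1.5-fold, at 0.55 and 0.38, and both folds have the array of low ACTB ratio as their base, whose part was not tested. CRYAB was at -0.58 in SKOV-3, just short of 1.5-fold, and -0.21 in Caov-3, and over both lines at -0.40 (SE 0.152, adjusted p = 0.983). STIP1 was at 0.38 and 0.22, above the IL-6 array in both lines, and over both lines at 0.30 (SE 0.103, adjusted p = 0.983). HSPA2 had folds of 0.36 (SKOV-3) and -0.20 (Caov-3), FKBP4 at 0.21 and -0.39 and DNAJB2 at 0.10 and -0.51, each with the lines opposite.

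Set against untreated, siltuximab with IL-6 shares its untreated arrays with the IL-6 comparison, and limma called 0 of 29 genes and 0% of all (at an unadjusted p under 0.05, 3 of 29 and 5.74% of all). HSP90AB1 had folds of -0.32 (SKOV-3) and -0.26 (Caov-3), and was over both lines at -0.29 (SE 0.0712, adjusted p = 0.717), or -0.10 after quantile normalization. DNAJB4 was at 0.26 and 0.34 and CHORDC1 at 0.08 and 0.37. In SKOV-3 1 gene was at least 1.5-fold lower (4.40% of all genes) and 0 higher (2.33%), namely DNAJB5 at -0.60, and FKBP4 stood highest at 0.35. In Caov-3 1 gene was higher (2.67%) and 0 lower (2.61%), namely HSPB8, which went from 130.4 to 213, a log2 fold of 0.64. HSPB8 in Caov-3 is close to the array median, and its single high array carries both of its folds past 1.5.

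The probe sets of HSP90AA1 differed on a single array, that of Caov-3 with IL-6, which has the low ACTB ratio. The part of that low ratio was not tested. There the 4 HSP90AA1 probe sets had log2 folds over untreated of -0.16, 0.01, -0.58 and -0.19. SKOV-3 gave -0.16, -0.15, -0.28 and -0.30. The probe set at -0.58 had Caov-3 signals of 34141, 22768 and 32401, while that at 0.01 had 33505, 33759.9 and 34802.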

How the data were processed

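The authors deposited 1 linear signal intensity for each probe set, made with Affymetrix Expression Console and MAS5 per the submitters' processing notes, with versions not given in the sources used here. Per the labels, RNA of 3 flasks was pooled before labelling. The members and gene lists were chosen with earlier results of these data known. Groups came from the sample titles. Here the intensities were taken to log2 after adding 17.1, the 20th percentile of single-symbol probe sets, without further normalization. A gene entered the fits if at least 2 of 6 arrays were at or above their median, and a comparison of 2 arrays if the higher one was. The model for every gene held line and treatment (limma 3.58.1, R 4.3.3, eBayes with a trend), leaving 2 residual degrees of freedom, and was tested on simulated data. P-values were adjusted by Benjamini-Hochberg over all genes. P-values measure only the spread between these arrays, whose number limits the precision. For each gene, eBayes draws that spread towards the spread of other genes. Alternatives changed the pseudocount, scaling, filter, probe set, prior, treatment term and each array in turn. All 36 members may be named. Values on every array are given for HSF1, the 12 with the largest line difference and the 3 with the largest fold in each comparison. The 6 other chaperone genes that differ most between the lines are named, as are the CCT and J-domain genes of that list. Tables used Python 3.11.15 with pandas 2.3.3.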

Additional observations from a re-analysis of the deposited data

How the results depend on the processing

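The counts of members called between the lines moved little, from 5 to 6 higher and from 15 to 17 lower over 16 alternatives. Leaving out each array in turn gave 6 to 6 higher and 15 to 16 lower, and for each treatment 0 members were called under every alternative run. Of the 22 called members, 17 kept direction and call under all alternatives tried, and 20 kept their direction. DNAJB5 lost its call without a filter (adjusted p 0.0622), without the treatment term (0.0501) and without the untreated or IL-6 array of either line. HSPD1 lost it with no trend in the prior (0.0604) and HSP90AB1 without the treatment term (0.0584). Averaging a gene's probe sets turned the line difference to -0.24 for HSF1, -0.51 for HSPA4, -0.20 for HSPA14 and -0.0464 for HSP90AA1. Leaving out the _x_at and _s_at probe sets turned it to -1.25 for HSPA4, 0.11 for HSPB8 and -0.15 for HSP90AA1. Members near 0 changed sign: HSPB1 to -0.0134 after quantile normalization and HSP90AA1 to -0.0391 (quantile) and -0.0124 (cyclic loess). With each array left out in turn HSPB1 ran from -0.011 to 0.041, HSPA4 from -0.00675 to 0.0687 and HSP90AA1 from -0.0511 to 0.0888. For IL-6, CHORDC1 turned to -0.022 without those probe sets and HSF1 to -0.0043 with the mean. For siltuximab plus IL-6 against untreated, HSPD1 turned to 0.025 after quantile normalization and the DNAJB5 fold in SKOV-3 to 0.27 on averaging its probe sets. The further DNAJB5 probe set had a fold of 1.15 there, from 24.6 untreated to 75.1, and was below the array median on all 6 arrays. The further CHORDC1 probe set, which stood for the gene without the brightest one, was at 53.6 to 127. Why the probe sets of a gene differ was not tested. Counts of members at least 1.5-fold apart ran from 0 to 4 over the 8 alternatives. The labels give no replicate numbers. The fits pair the arrays of the lines by treatment, and the unpaired fit is the one without the treatment term, which ended the calls of HSP90AB1 and DNAJB5 given above. Depth is not known for arrays, and signal near background limits HSPA6 and HSPA1L.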

Other observations

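Signals are in the order untreated, IL-6, siltuximab plus IL-6. A dim probe set of HSPD1 had SKOV-3 signals of 545, 539.6 and 573 and Caov-3 signals of 210.5, 2.73 and 217, lowest on the Caov-3 array of low ACTB ratio. The dimmest probe set of FKBP5 had SKOV-3 signals of 263, 283 and 323 and Caov-3 signals of 147, 26.6 and 47.2, where the brightest one had 1068, 1035 and 1062.

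PPID varied with treatment in SKOV-3 on 2 probe sets alike, at 1419, 3345 and 1903 on the brightest and at 1148, 2477 and 1312 on the second, highest with IL-6 in each. Both were far lower in Caov-3 on all arrays. These values were noticed after they were seen and have no replicate.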
